A study of Mus musculus with 12 samples.

Results

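Gene expression in cells electroporated with an expression plasmid for Dmrta2 was compared with that in cells electroporated with siRNAs against Dmrt3 and Dmrta2, the 2 arms of the study in which Dmrt dosage was meant to move in opposite directions. The members are the 3 arrays labelled Dmrta2 overexpression and the 6 arrays of siRNA set 1 and set 2, 9 of the 12 arrays of the series, chosen by their titles. The 3 arrays of control siRNAs entered the estimate of the spread but not the difference. The nucleic acids were introduced, with a vector for a nuclear EGFP, into the medial wall of the telencephalon of E11.5 mouse embryos (strain CD-1), and fluorescent cells were sorted 24 hours later, at E12.5. All groups thus shared the EGFP vector, the electroporation and the sort. Each group had 3 replicates, which the series calls independent, and no label says how many embryos each held. No array held an empty expression plasmid, so an effect of plasmid against siRNA and an effect of Dmrt level cannot be told apart in this difference. The labels name no promoter for the plasmid. The 9 arrays are called plasmid arrays and siRNA arrays here.

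Dmrt3 and Dmrta2 (also known as Dmrt5) encode transcription factors that bind DNA through a zinc-containing DM domain. Both are made in a gradient in progenitors of the embryonic cortex, strongest in its medial part, next to the cortical hem. The hem is a signalling centre that releases Wnt and BMP proteins and is a source of Cajal-Retzius neurons. In mice that lack these factors the medial cortex and the hippocampus are reduced and genes of the ventral telencephalon appear in the dorsal part.

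Levels are given as the log2 of the processed spot signal minus the 75th percentile of the array, so that 0 is that percentile. A difference is the mean level on the plasmid arrays minus the mean of the 2 siRNA set means, with the moderated standard error (SE) of limma, fitted over all 12 arrays with the slide as a block. A gene was called when its p, adjusted by Benjamini-Hochberg over all 15323 genes tested, was under 0.05. Each slide carried 1 array of every group under 1 replicate number, always at the same place, so that place and group cannot be told apart. The raw signal at that percentile was between 571.5 and 1143 intensity units per array, and well above background lay 67.1% to 72.2% of the spots. The median local background was lowest on the plasmid array of each slide, 25 against 30 to 31 on slide 1, 23 against 27 to 29 on slide 2 and 23 against 26 to 27.5 on slide 3, and its part in the differences of dim genes was not tested. All 20 genes of the list of dorsal telencephalic regulators, with Emx1, Emx2 and Lhx2 among them, were well above background on all 9 arrays. So were 11 of the 16 ventral regulators tested and 14046 of all 15323 genes tested, so presence alone does not check the tissue label.

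The DM domain binds a core that was searched for here as ACATTGT or its reverse complement ACAATGT, which overlaps the ATTGT core of SOX factors, in the 250 bases before each RefSeq start. It was found in 2 of the 77 windows of named genes (2.6%), against 2.56% of all 32851 windows and 1.46% of the 15393 windows of tested genes. Windows matched 57 of the 69 genes that were called and named or are targets. The 2 windows that held it are shown first, followed by those of Robo3 and Tacr3, which had one of the largest rises and one of the largest falls and held no match. Letters are RefSeq's on GRCm38.p6, 5′ to 3′ along the gene, and capitals mark the core. The Dmrta2 window (chr4:109977775-109978024, plus strand) held the core at 55 bases before the start and the Elavl4 window (chr4:110351912-110352161, minus strand) at 148 bases before it. The windows of Robo3 (chr9:37433176-37433425, minus strand) and Tacr3 (chr3:134828757-134829006, plus strand) follow.
Dmrta2: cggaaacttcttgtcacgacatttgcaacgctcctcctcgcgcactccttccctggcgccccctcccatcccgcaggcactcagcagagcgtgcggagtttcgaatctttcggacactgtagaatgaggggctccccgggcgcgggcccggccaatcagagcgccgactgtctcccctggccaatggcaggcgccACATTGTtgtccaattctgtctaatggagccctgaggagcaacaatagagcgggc
Elavl4: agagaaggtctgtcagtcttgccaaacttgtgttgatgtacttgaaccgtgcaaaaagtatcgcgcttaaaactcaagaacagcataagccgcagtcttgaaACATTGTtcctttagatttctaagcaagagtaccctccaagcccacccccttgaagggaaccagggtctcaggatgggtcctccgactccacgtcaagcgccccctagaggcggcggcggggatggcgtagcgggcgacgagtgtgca
Robo3: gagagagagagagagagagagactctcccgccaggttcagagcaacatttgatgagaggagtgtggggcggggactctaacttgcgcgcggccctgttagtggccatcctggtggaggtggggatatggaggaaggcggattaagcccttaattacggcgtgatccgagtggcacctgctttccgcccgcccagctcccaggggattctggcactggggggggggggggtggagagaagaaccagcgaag
Tacr3: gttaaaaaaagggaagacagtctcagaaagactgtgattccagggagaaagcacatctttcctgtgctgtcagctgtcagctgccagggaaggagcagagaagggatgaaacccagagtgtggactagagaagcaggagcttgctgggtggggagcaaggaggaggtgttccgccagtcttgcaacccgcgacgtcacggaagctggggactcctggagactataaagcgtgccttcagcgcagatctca

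The targeted genes were examined first. Dmrt3 stood at -0.10, 0.62 and 0.34 on the plasmid arrays, -1.13, -0.13 and -0.72 on the set 1 arrays and -0.81, -0.04 and -0.47 on the set 2 arrays. On every slide the plasmid array lay above both siRNA arrays, although over slides the lowest plasmid array overlapped the highest siRNA arrays. The difference was 0.84 ± 0.14 on the log2 scale (SE, n = 3 against 6), 1.78-fold, with a limma adjusted p of 0.0199. It was 0.87, 0.70 and 0.94 on slides 1, 2 and 3. The control arrays were at 0.06, 0.33 and 0.68, and the plasmid mean differed from the control mean by -0.07 (adjusted p = 1), so the Dmrt3 difference lay on the side of the siRNAs (-0.90, adjusted p = 0.0279). The call was lost without plasmid arrays 1, 2 or 3, set 1 array 3, or set 2 arrays 1 or 3, each left out in turn (adjusted p 0.0502 to 0.114), and without the slide block (adjusted p = 0.151). An exact two-sided permutation test over the 84 groupings of 9 arrays gave p = 0.0357 (0.0714 adjusted over the 2 targets; smallest possible 0.0119). These groupings ignore the slide.

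Dmrta2 stood at 2.10, 2.18 and 1.94 on the plasmid arrays, 2.14, 1.84 and 1.89 on the set 1 arrays and 2.41, 2.44 and 1.92 on the set 2 arrays. The groups overlapped throughout, and the difference was -0.03 ± 0.12 (limma adjusted p = 0.904; exact permutation p = 0.905). Control arrays stood at 2.72, 2.37 and 2.61, above all plasmid arrays. The Dmrta2 probe thus gave no sign of the plasmid's transcript, but its place relative to the sequence carried by the plasmid is not known, and a probe outside that sequence checks nothing about it. The plasmid arrays are therefore the arrays labelled Dmrta2 overexpression, and every direction below rests on that label. Of the 8 Dmrt family genes tested, 1 was called, Dmrt3, and Dmrta1 differed by -1.10 ± 0.25 with an adjusted p of 0.0562. The plot of levels by array shows both targets beside 8 genes described below.

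**Figure D1:**
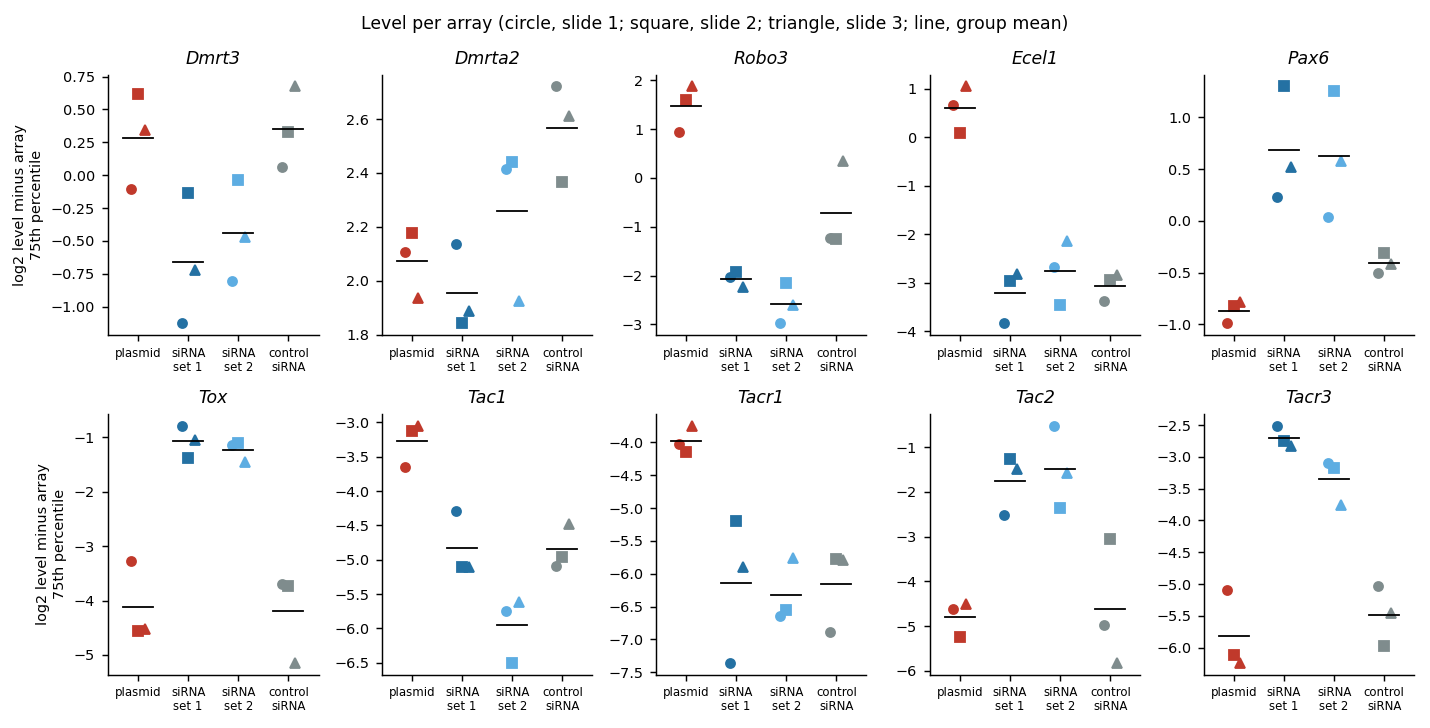
Log2 level minus the array's 75th percentile (y axis) in the plasmid, set 1, set 2 and control siRNA arrays for 10 genes, with 3 arrays a group (circle, slide 1; square, slide 2; triangle, slide 3) and a line at the group mean. Robo3, Ecel1, Tac1 and Tacr1 lie higher on all 3 plasmid arrays than on all 6 siRNA arrays and Pax6, Tox, Tac2 and Tacr3 lower, while Dmrta2 overlaps between the plasmid and siRNA arrays.

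Of the 15323 genes tested, 528 (3.45%) were called, 300 higher in the plasmid arrays (1.96%) and 228 lower (1.49%). The counts of each gene list below stand beside these shares. Without any adjustment 2849 genes had p under 0.05. In 235 of the 300 higher genes all 3 plasmid arrays lay above all 6 siRNA arrays, and in 191 of the 228 lower genes all lay below, where over all genes tested 3.82% lay above and 3.32% below. Differences past 2-fold were found for 111 higher and 57 lower genes, and past 4-fold for 33 and 7. Over all genes the median difference was 0.01, the quartiles were -0.14 and 0.16, and the median SE was 0.13. Among the 14046 genes measured on all 9 arrays, 266 were called higher and 205 lower. The count depended on single arrays: it was 195, 148 and 166 without plasmid arrays 1, 2 and 3, 268 without set 1 array 3, 316 and 287 without set 2 arrays 1 and 3, and 348 without control array 1.

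**Figure D2:**
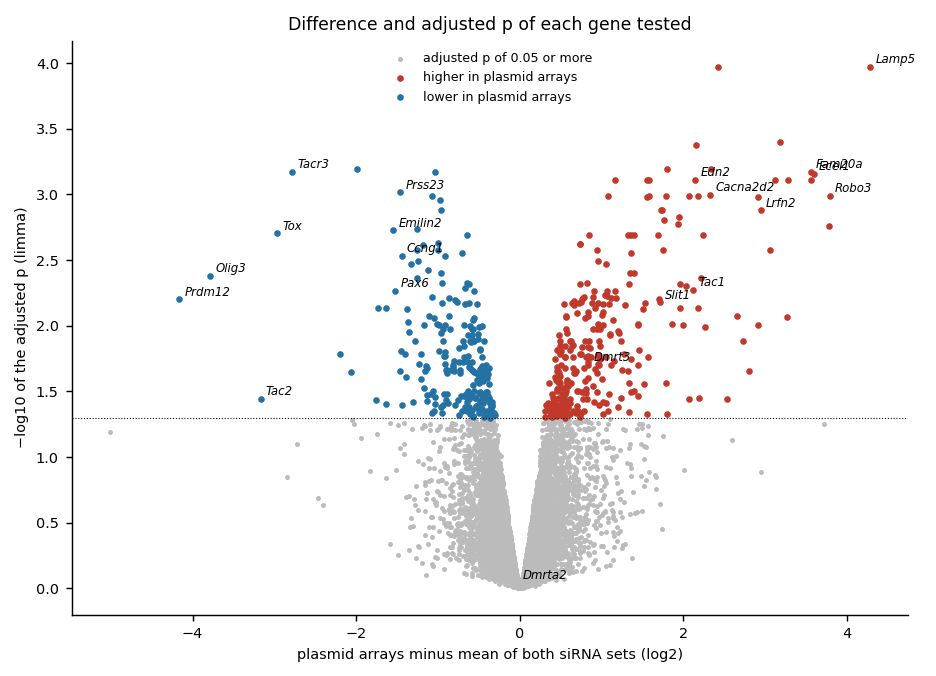
Difference of the plasmid arrays from the mean of both siRNA sets (x axis, log2) against the -log10 of limma's adjusted p (y axis) for the 15323 genes tested, with the 300 genes called higher in red, the 228 called lower in blue and a dotted line at 0.05. Robo3, measured on all 9 arrays, lies at 3.79 and Tox, also measured on all 9, at -2.97, while places of genes not above background in one arm, such as Prdm12, are not measured differences, and Dmrta2 lies at the bottom near 0.

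Lamp5, Ecel1, Lrfn2, Cbln4 and Ano1, genes of membrane or secreted proteins, were among the 15 largest rises in the plasmid arrays. Lamp5 stood at -3.21, -2.95 and -2.80 on the plasmid arrays, -8.02, -8.11 and -6.87 on the set 1 arrays and -6.77, -7.03 and -6.78 on the set 2 arrays. This neuronal member of the LAMP membrane protein family rose above background on the 3 set 2 arrays but on no set 1 array, and differed by 4.28 ± 0.20 (SE, limma adjusted p = 0.000107), or by 3.57 with dim values raised to the floor. Ecel1 stood at 0.67, 0.10 and 1.05 on the plasmid arrays, -3.84, -2.97 and -2.81 on the set 1 arrays and -2.67, -3.46 and -2.15 on the set 2 arrays. Ecel1, a neuronal membrane peptidase related to the endothelin-converting enzymes, differed by 3.59 ± 0.26, 12.1-fold (adjusted p = 0.000698). Both were picked among genes whose arrays do not overlap between the arms, so their separation follows from that choice. Lrfn2, a synaptic adhesion protein, differed by 2.94 ± 0.27 and Cbln4, a secreted synaptic organiser, by 2.92 ± 0.25, each with 5 of 6 siRNA arrays above background. Ano1, a calcium-activated chloride channel, differed by 3.26 ± 0.45 with 5 siRNA arrays above background, and lost the call without plasmid array 2 (adjusted p 0.0689).

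The other genes of the 15 largest rises encode proteins of several kinds, and Robo3 is described below with the guidance genes. The matrix protein Cilp differed by 3.78 ± 0.36, from a level above background on 1 of 6 siRNA arrays. With dim values raised to the floor Cilp differed by 3.05. Fam20a, a pseudokinase of the secretory pathway, stood at -1.77, -2.09 and -2.02 on the plasmid arrays and differed by 3.56 ± 0.25. In this group 5 genes had no siRNA array above background, so their fold is a lower bound, taken against the lowest signal measured above background. They were above background on no control array either. They thus passed the filter, which asked for at least 3 arrays above background, through the plasmid arrays alone and could be called only higher. Cilp and Padi2, above background on no control array and on 1 and 2 siRNA arrays, also passed only with the plasmid arrays counted. Krt8, a keratin of simple epithelia, was at least 4.32-fold higher (adjusted p = 0.000774) and Tex14, a protein of germ cell bridges, at least 3.55-fold. The prostacyclin receptor gene Ptgir was at least 2.88-fold higher, Padi3, which converts peptidyl arginine to citrulline, at least 2.76-fold, and the epithelial zinc finger gene Bnc1 at least 1.97-fold. Padi3 and Bnc1 were not called with another background correction (normexp). Padi2 differed by 2.81 ± 0.49 with 2 siRNA arrays above background, and Grhl3, a grainyhead factor of surface ectoderm, by 2.91 ± 0.42. Padi2 was not called without plasmid arrays 1, 2 or 3, set 1 array 3, or set 2 array 3, left out in turn (adjusted p 0.056 to 0.114). Grhl3 was not called without plasmid arrays 2 or 3, left out in turn (adjusted p 0.0714 to 0.0764).

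Several of the 15 largest falls were in genes of nuclear proteins. Tox stood at -3.27, -4.55 and -4.53 on the plasmid arrays, -0.79, -1.39 and -1.05 on the set 1 arrays and -1.14, -1.10 and -1.45 on the set 2 arrays. Tox, an HMG-box nuclear protein, was lower on every plasmid array than on any siRNA array, with a difference of -2.97 ± 0.29 (SE, limma adjusted p = 0.00197). Olig3 stood at -8.18, -6.01 and -8.62 on the plasmid arrays, -2.45, -2.61 and -1.98 on the set 1 arrays and -5.96, -4.27 and -5.67 on the set 2 arrays. Olig3, a basic helix-loop-helix factor, was above background on 1 plasmid array and all 6 siRNA arrays and differed by -3.78 ± 0.44 (adjusted p = 0.00414). With dim values raised to the floor Olig3 differed by -2.49. Prdm12, a PRDM family regulator, was above background on no plasmid array and all siRNA arrays, so that it was at least 6.14-fold lower (adjusted p = 0.00627). A second Prdm12 probe, above background on 1 plasmid and 5 siRNA arrays, differed by -0.34. Pax6 stood at -0.99, -0.83 and -0.78 on the plasmid arrays, 0.23, 1.30 and 0.52 on the set 1 arrays and 0.04, 1.25 and 0.58 on the set 2 arrays. Pax6, the paired homeobox factor of cortical progenitors, fell by 1.52 on the log2 scale (SE 0.19, adjusted p = 0.00542), and its second probe differed by -1.28. The largest rises and falls were taken among genes whose arrays do not overlap between the arms.

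Foxp2, a forkhead factor, differed by -1.63 ± 0.22, with -1.39 from a second probe, and was not called under normexp. The proneural factor Neurod4, above background on 1 plasmid and 6 siRNA arrays, differed by -1.64 ± 0.34. Thap2, a THAP-domain protein, was above background on no plasmid array and was at least 1.72-fold lower; with dim values raised to a floor, or under normexp, it was not called. Among the other large falls were the copper-carrying ferroxidase Cp (-2.07 ± 0.37), the calpain Capn5 (-1.74 ± 0.23; -0.59 from a second probe), the matrix glycoprotein Emilin2 (-1.55 ± 0.15), the serine protease Prss23 (-1.46 ± 0.12) and the orphan receptor Gpr176 (-1.47 ± 0.26). Phyhipl was above background on 0 plasmid and 3 siRNA arrays, and no fold is given for it, since its bound was under 1. Prdm12, Thap2 and Phyhipl passed the filter only with the siRNA arrays counted, so they could be called only lower. Olig3 and Neurod4, each above background on 1 plasmid and 1 control array, also passed only with the siRNA arrays counted. Emilin2 and Prss23 were measured on all 9 arrays. Neurod4 was not called without plasmid arrays 1, 2 or 3, set 1 arrays 1, 2 or 3, set 2 arrays 1, 2 or 3, or control array 1, left out in turn (adjusted p 0.0605 to 0.171). Cp was not called without plasmid arrays 1, 2 or 3, set 1 array 3, or set 2 arrays 1 or 3, left out in turn (adjusted p 0.0535 to 0.0988). Gpr176 was not called without plasmid arrays 2 or 3, set 1 array 3, or set 2 arrays 1 or 3, left out in turn (adjusted p 0.0538 to 0.0851). Phyhipl was not called without plasmid arrays 1, 2 or 3, set 1 arrays 1, 2 or 3, set 2 array 3, or control array 3, left out in turn (adjusted p 0.0564 to 0.186). Neurod4 and Phyhipl also were not called with all dim probes kept or under normexp, Gpr176 not under normexp, and Phyhipl not with a floor or quantile normalization.

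**Figure D3:**
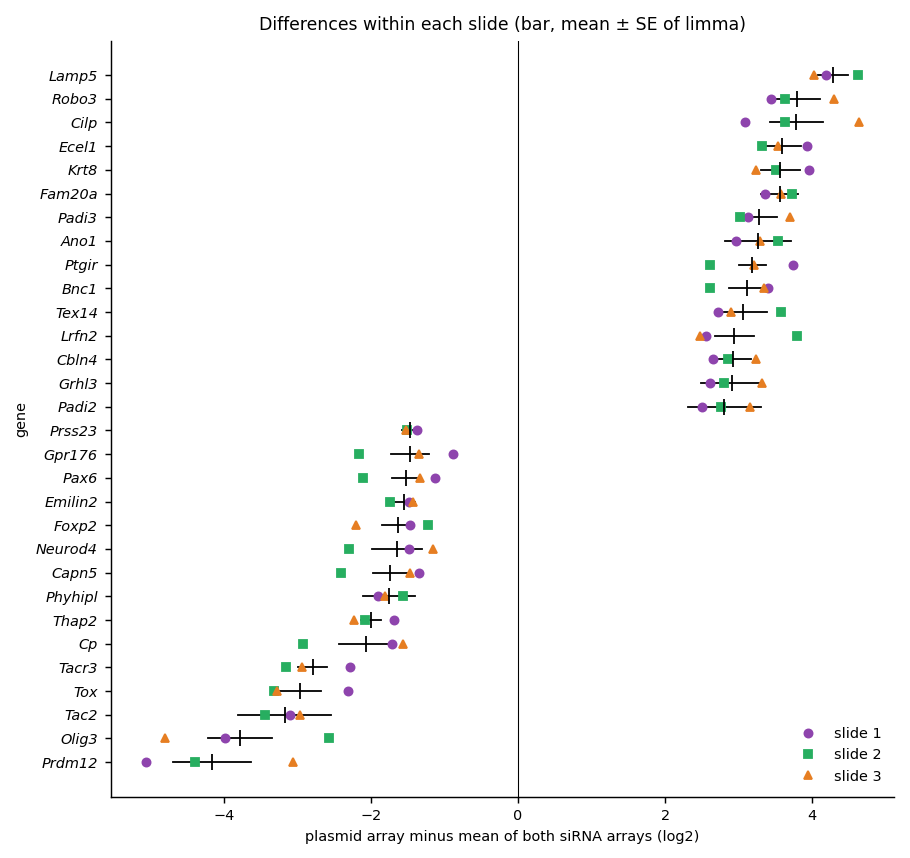
Difference of the plasmid array from the mean of both siRNA arrays on the same slide (x axis, log2) for the 15 genes with the largest rise and the 15 with the largest fall, with a marker for each slide, a tick at the difference over slides and a bar of 1 SE either side. The genes were chosen for arrays that do not overlap between the arms, which fixes their sign on every slide, so the spread over slides is what the plot shows; Lamp5 runs from 4.02 to 4.62.

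Which side of the control level the differences fell on was asked of the 3 control arrays, which the 2 contrasts against control share, so the values are a description. On a scale that puts the siRNA mean at 0 and the plasmid mean at 1, the control level of the 300 higher genes had a median of 0.43, and that of the 228 lower genes 0.86. Over all tested genes of the same sign, called or not, the medians were 0.69 and 0.76. The control was nearer the siRNA mean in 169 of the 300 higher genes (56.3%) and in 19 of the 228 lower genes (8.33%). Over all tested genes of the same sign those shares were 41.7% and 37.4%. The higher genes were a median 0.47 above control in the plasmid arrays and differed by -0.34 from it in the siRNA arrays. For the lower genes these medians were -0.09 and 0.57.

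Against control, 50 of 15323 genes were called in the plasmid arrays (0.326%), all higher, while 1039 had an unadjusted p under 0.05 in limma. Of the 300 higher genes 41 were called against control in the plasmid arrays and 35 in the siRNA arrays. Of the 228 lower genes, 0 were called in the plasmid arrays by limma (31 at an unadjusted p under 0.05) and 110 in the siRNA arrays (215 unadjusted). The siRNA contrast has 6 arrays against 3, with 232 calls (1.51%), so calls in the pair are not a test of a difference between them. These counts also depended on single arrays. The 50 calls became 20, 20 and 12 without plasmid arrays 1, 2 and 3, and 11 without control array 1. The 232 calls became 0 and 17 without control arrays 1 and 3, 91 and 111 without plasmid arrays 1 and 3, 132, 97 and 90 without set 1 arrays 1, 2 and 3, and 74, 95 and 63 without set 2 arrays 1, 2 and 3. Without the slide block they were 42 and 102, and with all dim probes kept 37 and 69. Markers of other cell types also differed from control in level: the median member was 1.31 above it for microglia and 0.94 for erythroid cells in the plasmid arrays, and 0.92 and 0.70 in the siRNA arrays. Summed erythroid signal was 8.66 to 18.8 times the 75th percentile on the plasmid arrays and 4.42 to 6.59 on the control arrays, without overlap. On set 1 (3.7 to 23.8) and set 2 (5.55 to 13.2) it overlapped control. Summed microglial signal overlapped, at 13.3 to 24.6 on the plasmid arrays and 13.9 to 24.7 on the control arrays. The part of these cells in the contrasts against control was not tested. Tox gives an example of the lower genes, at 0.08 against control in the plasmid arrays and 3.04 in the siRNA arrays. Ecel1 was 3.67 and 0.07 in the same order, and Robo3 2.18 and -1.61. Neither Robo3 value was called (limma adjusted p = 0.0644 and 0.0521), and its control arrays were spread, at -1.2, -1.2 and 0.3.

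**Figure D4:**
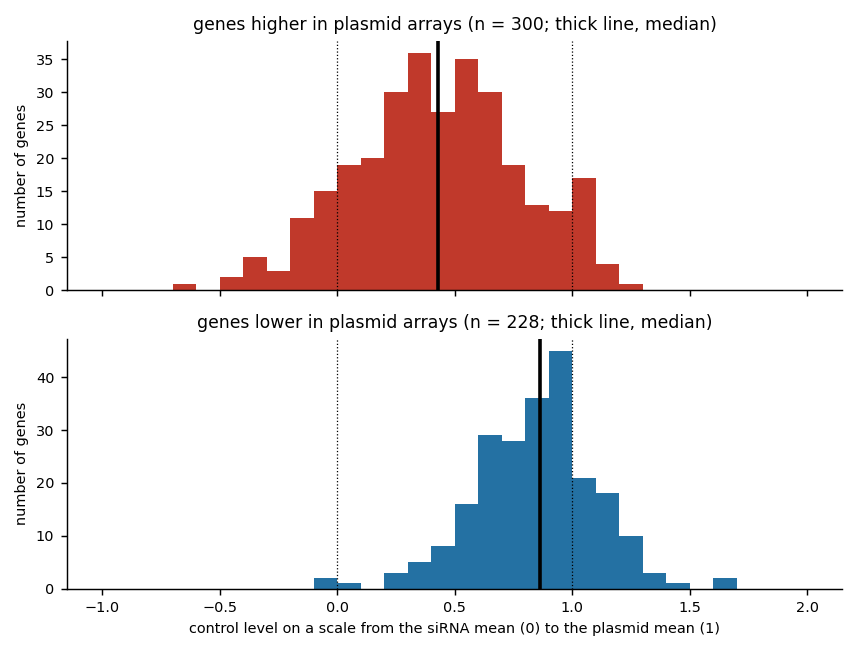
Number of called genes (y axis) by the place of the control siRNA mean on a scale from the siRNA mean (0) to the plasmid mean (1), for the 300 genes higher and the 228 genes lower in the plasmid arrays. Dotted lines mark 0 and 1 and the solid line the median, which is 0.43 for the higher genes and 0.86 for the lower genes.

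Of the tachykinin peptide and receptor genes, Tac1 and Tacr1 were higher in the plasmid arrays and Tac2 and Tacr3 lower. Tac1 encodes substance P and neurokinin A, which act chiefly on the receptor encoded by Tacr1, and Tac2 encodes neurokinin B, which acts on the receptor encoded by Tacr3. Tac1 stood at -3.65, -3.13 and -3.05 on the plasmid arrays, -4.29, -5.10 and -5.11 on the set 1 arrays and -5.75, -6.50 and -5.61 on the set 2 arrays. Tacr1 stood at -4.03, -4.14 and -3.75 on the plasmid arrays, -7.35, -5.19 and -5.89 on the set 1 arrays and -6.64, -6.54 and -5.76 on the set 2 arrays. Both were higher on all plasmid arrays than on all siRNA arrays, by 2.12 ± 0.26 (5 siRNA arrays above background, limma adjusted p = 0.00532) and 2.26 ± 0.33 (3 siRNA arrays, adjusted p = 0.0103). Tac2 stood at -4.62, -5.25 and -4.50 on the plasmid arrays, -2.52, -1.26 and -1.49 on the set 1 arrays and -0.52, -2.35 and -1.57 on the set 2 arrays. Tacr3 stood at -5.09, -6.11 and -6.24 on the plasmid arrays, -2.51, -2.75 and -2.84 on the set 1 arrays and -3.10, -3.17 and -3.76 on the set 2 arrays. This pair was among the 15 largest falls, which were chosen for arrays that do not overlap between the arms. The differences were -3.17 ± 0.63 for Tac2 (adjusted p = 0.036) and -2.79 ± 0.20 for Tacr3 (2 plasmid arrays above background, adjusted p = 0.000674). Tac2 was not called without plasmid arrays 1, 2 or 3, set 1 arrays 2 or 3, set 2 arrays 1 or 3, or control array 1, left out in turn (adjusted p 0.0595 to 0.202). Tacr1 was not called without plasmid arrays 1 or 3, left out in turn (adjusted p 0.0568 to 0.0605). With all dim probes kept Tac2 was not called either.

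These 4 genes belong to a list of neuropeptides, receptors and channels with a median difference of 0.00. Of its 29 tested members 6 were higher and 2 lower, against 1.96% and 1.49% of all genes. Tacr3, Edn2 and Ecel1 were put in this list, and Lrfn2 in that of guidance genes, with earlier results of these data known. The other called members were higher. Ecel1 is described above. Edn2 stood at -2.61, -2.26 and -2.70 on the plasmid arrays, -4.65, -5.04 and -4.62 on the set 1 arrays and -4.41, -4.60 and -4.65 on the set 2 arrays. Edn2, the endothelin 2 peptide, was 4.41-fold higher (2.14 ± 0.16, adjusted p = 0.000774), with no overlap between arms. Its level was 0.91 from control in the plasmid arrays and -1.23 in the siRNA arrays. The calcium channel subunit gene Cacna2d2 differed by 2.33 ± 0.19 (2.72 from a second probe) and the potassium channel gene Kcnc1 by 1.40 ± 0.27 (1.44 and 1.66 from further probes). Kcnc1 was not called without plasmid arrays 1, 2 or 3, set 1 arrays 1, 2 or 3, or set 2 arrays 1 or 3, left out in turn (adjusted p 0.0502 to 0.165). Kcnc1 was not called with all dim probes kept. Ednra, an endothelin receptor, was at -1.06 ± 0.27 (adjusted p = 0.0769).

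Of 38 axon guidance and adhesion genes 4 were higher and 2 lower, where 1.96% and 1.49% of all genes were, and 32 were not called; the median was 0.00. Robo3 stood at 0.93, 1.59 and 1.87 on the plasmid arrays, -2.02, -1.92 and -2.24 on the set 1 arrays and -2.98, -2.16 and -2.60 on the set 2 arrays. Robo3, a Robo family protein that governs midline crossing of commissural axons, was 13.8-fold higher in the plasmid arrays (3.79 ± 0.32, limma adjusted p = 0.00102). Robo1 stood at -0.56, -1.33 and -1.05 on the plasmid arrays, 0.50, 0.12 and 0.24 on the set 1 arrays and 0.31, -0.35 and -0.20 on the set 2 arrays. Robo1, a receptor for Slit ligands, went the other way, at -1.08 ± 0.21 (adjusted p = 0.0329), with no overlap. Slit1 stood at 1.96, 1.65 and 2.06 on the plasmid arrays, 0.24, -0.09 and 0.39 on the set 1 arrays and 0.49, -0.64 and 0.71 on the set 2 arrays. The ligand gene Slit1 was higher by 1.71 ± 0.22 (adjusted p = 0.00663). The netrin receptor gene Unc5b was higher by 1.36 ± 0.15, and Sema3a, a repellent semaphorin, was lower, at -1.33 ± 0.15 (-0.95 from a second probe). Lrfn2 is the remaining called member. Robo1 was not called without plasmid arrays 1, 2 or 3, set 1 arrays 1, 2 or 3, or set 2 arrays 1 or 3, left out in turn (adjusted p 0.06 to 0.189). Slit1 was not called without plasmid array 2 (adjusted p 0.0503). Robo1 was not called with all dim probes kept.

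The hem and the choroid plexus lie at the edge of the medial cortex. Of 23 of their genes, 2 were called higher and 0 lower (10 and 0 at an unadjusted p under 0.05 in limma), with a median of 0.42 against 0.01 over all genes. Over all genes 1.96% were called higher and 1.49% lower. Of the 23 differences, hem and choroid plexus genes together, 16 were positive and 7 negative. Wnt8b, a Wnt ligand of the hem and medial cortex, differed by 0.94 ± 0.17 with overlapping arrays (0.64 from a second probe). The BMP-responsive homeobox gene Msx1 differed by 0.76 ± 0.10. Rspo1, a secreted enhancer of Wnt signalling, was at 0.70 ± 0.16 (adjusted p = 0.0547) and Gdf7, a hem BMP ligand, at 0.53 ± 0.12 (adjusted p = 0.0607). The summed signal of the list, in multiples of the 75th percentile, was 20.8 to 23.8 on the plasmid arrays, 15.9 to 21.7 on the set 1 arrays and 12.2 to 16.8 on the set 2 arrays, so that the plasmid arrays overlapped set 1 and not set 2. In these bulk samples fewer cells of a type and less RNA per cell cannot be told apart. The BMP response list had 2 of 13 higher, Msx1 and Smad9 (1.01 ± 0.18, 1 siRNA array above background), 0 lower (7 and 0 unadjusted) and a median of 0.37. Smad9, above background on 1 control array too, passed the filter on dim probes only with the plasmid arrays counted. Wnt8b was not called without plasmid arrays 1, 2 or 3, or set 1 array 2, left out in turn (adjusted p 0.0518 to 0.131). Smad9 was not called without plasmid arrays 1 or 2, set 1 arrays 1, 2 or 3, or set 2 arrays 1, 2 or 3, left out in turn (adjusted p 0.0522 to 0.15). Neither was called without the slide block, nor Smad9 with a floor or under normexp.

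Of 21 Fgf and Erk response genes 4 were higher and 1 lower, with 19 of 21 differences positive and a median of 0.35. Over all genes tested 1.96% were higher and 1.49% lower, and 8003 of 15323 differences were positive, with a median of 0.01. Fgf15 stood at -2.87, -2.68 and -2.67 on the plasmid arrays, -3.90, -4.12 and -4.16 on the set 1 arrays and -3.83, -3.69 and -3.41 on the set 2 arrays. Fgf15, a secreted Fgf of the forebrain, was higher by 1.11 ± 0.14 (limma adjusted p = 0.00615), without overlap. Etv4 stood at 0.44, 0.63 and 0.41 on the plasmid arrays, -0.59, 0.29 and -0.55 on the set 1 arrays and -0.87, -0.90 and -1.02 on the set 2 arrays. Etv4 and Etv5, ETS factors induced by Fgf signalling, were higher by 1.10 ± 0.16 and 1.09 ± 0.14 (adjusted p = 0.0118 and 0.00687), and a second Etv4 probe gave 1.43. The feedback inhibitor gene Spry1 was higher by 0.88 ± 0.12. Etv1, the remaining Etv gene of the list, was lower, at -0.51 ± 0.11, with overlapping arrays. Etv4 was not called without plasmid arrays 1 or 3, left out in turn (adjusted p 0.0669 to 0.0829). Spry1 was not called without plasmid array 3 (adjusted p 0.0517). Etv1 was not called without plasmid arrays 1, 2 or 3, set 1 arrays 1 or 3, set 2 arrays 2 or 3, or control arrays 1 or 3, left out in turn (adjusted p 0.0556 to 0.169). Etv1 and Etv5 were not called without the slide block, nor Etv1 with the 9 arrays alone, scaling to the array median or all dim probes kept.

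Of the 18 Wnt target genes 0 were higher (4 at an unadjusted p under 0.05 in limma) and 1 lower, Wif1, a secreted Wnt inhibitor, at -1.44 ± 0.30. Ccnd1, which encodes cyclin D1, was at 1.75 ± 0.43 with an adjusted p of 0.0688 and all 3 plasmid arrays above the siRNA arrays. None of 10 Shh pathway genes was called (1 at an unadjusted p under 0.05). Wif1 was not called without plasmid arrays 1, 2 or 3, set 1 arrays 1 or 3, set 2 array 1, or control arrays 1 or 3, left out in turn (adjusted p 0.0512 to 0.197). Nor was it called without the slide block, with 9 arrays alone or with all dim probes kept.

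Regional factors of the telencephalon were read against the 3.45% of all genes that were called. Of 20 dorsal telencephalic regulators 1 was higher, Hopx (1.28 ± 0.21; 1.32 from a second probe), a homeodomain protein made in the medial cortex, and 1 lower, Pax6. Otx1 was at -0.56 ± 0.14, Nr2f1 at -0.50 ± 0.13 and Eomes at -0.63 ± 0.17, none of them called (lowest adjusted p = 0.0678). Of 16 ventral regulators 1 was higher and 2 lower. Ebf1 stood at -2.50, -2.79 and -2.52 on the plasmid arrays, -3.31, -3.58 and -3.79 on the set 1 arrays and -3.83, -3.87 and -4.26 on the set 2 arrays. Ebf1, made in young striatal neurons and also in other neurons, was higher by 1.17 ± 0.15 without overlap (adjusted p = 0.00617). Isl1, a LIM-homeodomain factor above background on 0 plasmid and 6 siRNA arrays, was called lower with overlapping arrays, and its sign turned to 0.12 under normexp. Against the floor it was at least 1.13-fold lower. Isl1 passed the filter on dim probes through the siRNA arrays alone, so it could be called only lower. Etv1 is the other lower member. Dlx1, above background on 0 plasmid and 5 siRNA arrays, was not called (adjusted p = 0.126) and had a bound of at least 1.79-fold lower; Olig2 stood at -0.75 ± 0.20 (adjusted p = 0.0899). Hopx was not called without plasmid arrays 1, 2 or 3, left out in turn (adjusted p 0.0799 to 0.102). Isl1 was not called without plasmid arrays 2 or 3, set 1 arrays 1, 2 or 3, set 2 arrays 2 or 3, or control arrays 1, 2 or 3, left out in turn (adjusted p 0.0517 to 0.225). Isl1 also was not called without the slide block, with 9 arrays alone, with a floor, with quantile normalization or with all dim probes kept.

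Of 14 hippocampal field genes 0 were higher (0 unadjusted) and 1 was lower, the adhesion protein Cntn3 (-0.92 ± 0.15), with 4 at an unadjusted p under 0.05 in limma and a median of -0.20. Cajal-Retzius neuron genes had 2 of 12 higher and 0 lower (4 and 0 unadjusted), where 1.96% and 1.49% of all genes were called. Of the 12 differences 7 were positive and 5 negative, with a median of 0.12. Ebf2 stood at -0.78, -0.23 and -0.08 on the plasmid arrays, -1.33, -1.46 and -1.39 on the set 1 arrays and -2.35, -1.90 and -2.14 on the set 2 arrays. Ebf2, a helix-loop-helix factor of these neurons, was higher by 1.39 ± 0.14 (limma adjusted p = 0.00204), with no overlap, and Nhlh2, another such factor, by 0.95 ± 0.16. Lhx5, a LIM-homeodomain factor of the hem, stood at 1.11 ± 0.25 (adjusted p = 0.0515), with 0.31 against set 1 and 1.90 against set 2. The summed signal of the list nevertheless overlapped, at 29.5 to 41.8 on the plasmid arrays, 38.2 to 54.1 on set 1 and 27.6 to 39.8 on set 2. Cntn3 was not called without plasmid arrays 2 or 3, left out in turn (adjusted p 0.0779 to 0.1). Nhlh2 was not called without plasmid arrays 1, 2 or 3, left out in turn (adjusted p 0.0602 to 0.124). Cntn3 was not called under normexp, nor Nhlh2 without the slide block.

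Proneural and neurogenic genes gave 1 of 23 higher, Nhlh2, and 4 lower, Olig3, Tox, Neurod4 and the RNA-binding Elavl4 (-0.59 ± 0.12; -0.82 from a second probe), with a median of -0.19. Tox and Olig3 were put in this list with earlier results of these data known. Olig3 and Neurod4 passed the filter on dim probes only with the siRNA arrays counted. Among all genes tested, 1.96% were higher and 1.49% lower. Neurod1 stood at -0.87 ± 0.22 (adjusted p = 0.0729). Of 24 Notch and radial glial genes 1 was higher, the progenitor factor Sox1 (0.75 ± 0.16; 0.33 from a second probe), and 3 lower: the glutamate transporter gene Slc1a3 (-0.81 ± 0.14), the intermediate filament gene Vim (-0.58 ± 0.09) and the membrane protein gene Gpm6b (-0.51 ± 0.09). All 3 plasmid arrays were beyond the 6 siRNA arrays in each of these 5 genes. Of 24 postmitotic neuron genes 0 were higher (0 unadjusted in limma) and 1 lower, Elavl4. Elavl4 was not called without plasmid arrays 1, 2 or 3, set 1 arrays 2 or 3, set 2 arrays 1 or 3, or control array 1, left out in turn (adjusted p 0.0616 to 0.19). Sox1 was not called without plasmid arrays 1, 2 or 3, set 1 arrays 2 or 3, set 2 arrays 1, 2 or 3, or control arrays 1 or 2, left out in turn (adjusted p 0.053 to 0.24). Slc1a3 was not called without plasmid arrays 2 or 3, or set 1 array 3, left out in turn (adjusted p 0.061 to 0.131). Vim was not called without plasmid arrays 1, 2 or 3, left out in turn (adjusted p 0.0635 to 0.0815). Gpm6b was not called without plasmid arrays 1, 2 or 3, set 1 arrays 2 or 3, set 2 arrays 1 or 3, or control array 1, left out in turn (adjusted p 0.0505 to 0.136). Without the slide block Elavl4, Sox1 and Gpm6b were not called. Elavl4 and Sox1 also were not called with all dim probes kept, nor Sox1 with 9 arrays alone, scaling to the array median or the mean of all probes.

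Cell cycle and stress genes were tested for other differences between the arms. None of 36 S and G2/M phase genes was called by limma, with 9 higher and 1 lower at an unadjusted p under 0.05, 29 of 36 differences positive and a median of 0.27. Over all genes tested 8003 of 15323 differences were positive, with a median of 0.01, and 1.96% were called higher and 1.49% lower. Of 25 p53 response genes 2 were higher, Plk3 (0.98 ± 0.14) and Zmat3 (0.51 ± 0.10), and 1 lower. Ccng1 stood at -2.15, -2.33 and -2.60 on the plasmid arrays, -1.32, -1.37 and -1.23 on the set 1 arrays and -0.55, -0.18 and -0.86 on the set 2 arrays. That lower gene was Ccng1, which encodes cyclin G1, at -1.45 ± 0.16 (adjusted p = 0.00293), and all plasmid arrays lay below all siRNA arrays. It stood at 0.06 from control in the plasmid arrays and 1.50 in the siRNA arrays. Of 21 immediate early and heat shock genes 0 were higher (2 unadjusted) and 1 lower, the chaperone gene Hsph1 (-0.49 ± 0.08). None of 17 interferon response genes was called (0 in either direction unadjusted). Plk3 was not called without plasmid array 2 (adjusted p 0.0502). Zmat3 was not called without plasmid arrays 1, 2 or 3, set 1 arrays 2 or 3, set 2 arrays 1, 2 or 3, or control arrays 1 or 3, left out in turn (adjusted p 0.0585 to 0.184). Hsph1 was not called without plasmid arrays 1, 2 or 3, left out in turn (adjusted p 0.0549 to 0.0924). Hsph1 was not called without the slide block, nor Zmat3 with 9 arrays alone or all dim probes kept.

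Of 18 small RNA processing genes, 1 was higher, Dcp2, the decapping enzyme of mRNA decay, and 0 were lower (0 unadjusted in limma). Dcp2 stood at -1.27, -1.19 and -1.07 on the plasmid arrays, -1.82, -1.73 and -2.08 on the set 1 arrays and -2.31, -2.32 and -2.42 on the set 2 arrays. The difference was 0.94 ± 0.10 (adjusted p = 0.00267), without overlap. It was 0.12 from control in the plasmid arrays and -0.82 in the siRNA arrays. Dicer1, which cuts small RNAs from their precursors, stood at 0.36 ± 0.10 (adjusted p = 0.0868).

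Markers of other cell types were compared since the sort selected on fluorescence alone. None of 17 microglial, 10 erythroid, 12 endothelial and 11 mesenchymal genes was called by limma, with unadjusted p under 0.05 for 2, 1, 1 and 4 of them. Their summed signals overlapped between the arms in each of the 4 lists. For endothelial markers they were 8.06 to 14.7 times the 75th percentile on the plasmid arrays, 5.93 to 14.3 on set 1 and 8.06 to 13.8 on set 2. Mesenchymal sums were 2.06 to 2.79 on the plasmid arrays, 2.54 to 9.22 on set 1 and 2.37 to 2.52 on set 2. Of the markers on the array, 17 of 18 microglial, 11 of 13 erythroid, 14 of 16 endothelial and 18 of 18 mesenchymal were above background somewhere in the series. Spi1, Rhag, Tek and Emcn were among those above background on no array. Of the surface ectoderm markers 4 of 14 were higher and 0 lower (6 and 0 unadjusted): Krt8, Krt17 (2.07 ± 0.42), Krt18 (1.56 ± 0.26) and the grainyhead factor Grhl2 (1.23 ± 0.24, 1 siRNA array above background; -0.08 from a second probe, which was above background on none of the 9 arrays). Among all genes tested, 1.96% were called higher and 1.49% lower. Krt8 passed the filter on dim probes only through the plasmid arrays, so it could be called in 1 direction only. Grhl2, above background on 1 siRNA and 1 control array, also passed only with the plasmid arrays counted. The median was 0.33 over all 14 and 0.05 over the 11 measured on all 9 arrays. The summed signal overlapped, at 7.81 to 11.2 on the plasmid arrays, 6.92 to 12.6 on set 1 and 7.12 to 10.2 on set 2. Of the 19 genes of this list, 17 were above background on some array of the series and 11 on all 9, while Krt19 and Cdh1 were so on none. The part of ectodermal cells in these differences was not tested. Krt17 was not called without plasmid arrays 1, 2 or 3, set 1 arrays 2 or 3, set 2 arrays 1 or 3, or control array 1, left out in turn (adjusted p 0.0633 to 0.203). Krt18 was not called without plasmid arrays 1, 2 or 3, or set 1 array 3, left out in turn (adjusted p 0.0532 to 0.106). Grhl2 was not called without plasmid arrays 1, 2 or 3, set 1 arrays 1, 2 or 3, set 2 arrays 2 or 3, or control array 1, left out in turn (adjusted p 0.0512 to 0.184). With all dim probes kept Krt17 and Grhl2 were not called, nor Grhl2 without the slide block or under normexp.

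**Figure D5:**
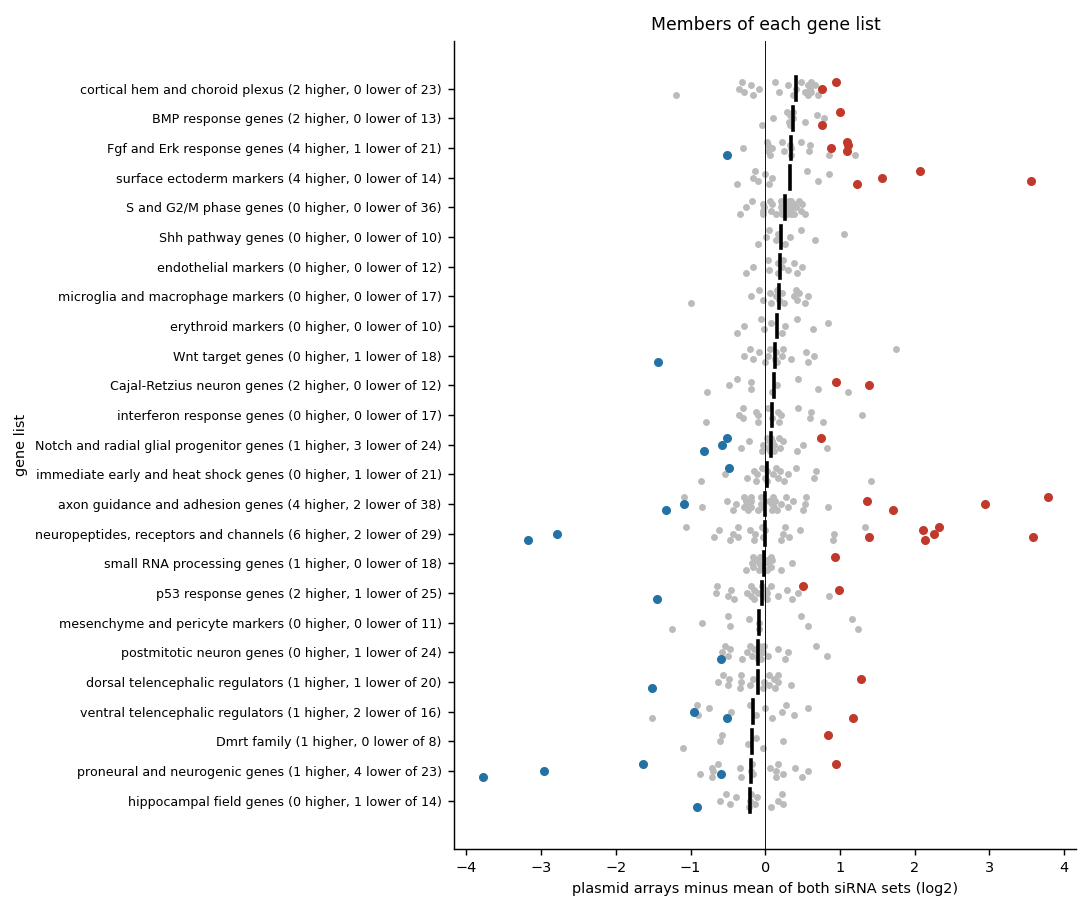
Difference of the plasmid arrays from the mean of both siRNA sets (x axis, log2) for each tested member of the 25 gene lists (rows), with called members in red (higher) or blue (lower), other members in grey and a bar at the list's median. Medians run from -0.20 to 0.42, and the list of cortical hem and choroid plexus genes has the highest.

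The same plasmid arrays were set against each siRNA set alone, in comparisons that share them. Against set 1, 324 genes were called (2.11%), 175 higher (1.14%) and 149 lower (0.972%), and against set 2, 672 (4.39%), 391 higher (2.55%) and 281 lower (1.83%). Without plasmid arrays 1, 2 and 3 these counts were 96, 75 and 83 against set 1, and 267, 139 and 174 against set 2. Leaving out set 1 arrays 1, 2 and 3 gave 155, 124 and 72 against set 1. Leaving out set 2 arrays 1, 2 and 3 gave 213, 200 and 178 against set 2, and 197 and 214 against set 1 for arrays 1 and 3. Without control array 1 the counts were 208 and 412, and without control array 3 they stayed within 1.5 times. The sets themselves differed in 37 genes (0.241%), a count that was 0 to 43 with 1 array left out and 0 without plasmid array 1 or 3, control array 1, set 1 array 1 or 3, or any 1 of the set 2 arrays. It was 14, 9 and 1 without plasmid array 2, control array 3 and set 1 array 2. It was 12 without the slide block, 18 with the array median and 5 with all dim probes kept, but 56 with quantile normalization, 58 under normexp, 61 with the stricter filter and 69 with a floor. No gene described above was among these, and the nearest to the threshold were Emilin2, whose level in set 2 minus set 1 was -1.12 (adjusted p = 0.0538), and Olig3 (-2.95, adjusted p = 0.0678). Olig3 thus differed from the plasmid arrays by -5.26 ± 0.50 for set 1 and by -2.31 ± 0.50 for set 2, and Emilin2 by -2.11 ± 0.17 and -0.99 ± 0.17.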

How the data were processed

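Agilent Feature Extraction 10.5.1.1, per the submitters' processing notes, gave the processed spot intensity used here, background-subtracted within the array per the file headers. The authors also deposited a log2 table, whose scale and centring no label states; it correlated at 0.9998 to 0.9999 with these values scaled to the 75th percentile and centred on each probe's median, in the same direction (column medians -0.13 to 0.10), and served as an alternative. Per-spot marks and annotation, deposited as text or flags, were used to filter and name spots.

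Control spots and outlier-marked spots (136 to 218 of 43020) were left out; none was saturated. The array's 75th percentile of log2 intensity was subtracted. Of 39429 probes, 26055 were named through RefSeq accessions (GRCm38.p6 table; array annotation mm9). Probes present on all 12 arrays and well above background on at least 3 were kept, and each gene took its probe of highest mean, 15323 genes.

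limma 3.58.1 (R 4.3.3) lmFit and eBayes ran over 12 arrays with the slide as block (6 residual degrees of freedom), two-sided, Benjamini-Hochberg, and was tested on simulated data. The block follows the shared slide in the file headers. Same-numbered arrays' deviations from their group means correlated at 0.02 to 0.60 (18 pairs), others at -0.52 to 0.21 (36 pairs). Deviations cancel within a group, so the lower values of the other pairs follow in part from the first and are no separate support. A fold against a group never above background is given as "at least", from means in which each array of that group takes the higher of the probe's signal and the lowest signal measured above background. p-values measure the spread between these samples, and the number of arrays limits precision.

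Named genes were Dmrt3, Dmrta2, the 15 largest called rises and falls with non-overlapping arrays, called list members, and up to 3 uncalled members a list; clone and locus numbers were not named, and a few list members are not reported here. Exceptions are Emx1, Emx2 and Lhx2 and the markers never above background, chosen after their values were seen. The comparison, the 25 gene lists and the named genes were chosen with earlier results of these data known. Alternatives were the block, 9 arrays alone, array median, deposited values, a floor, all probes averaged, no filter, a stricter filter (9 arrays), quantile normalization, normexp (offset 50) on deposited median spot and background intensity without background-outlier spots, and each array left out.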

Additional observations from a re-analysis of the deposited data

Results flagged for a closer look

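In 4 of the 69 genes checked, 1 of the 6 siRNA arrays stood far from the other 5; chance flags about 1 in 20 groups. Krt8 was at -6.92 on set 2 array 3, where the other siRNA arrays ran from -8.48 to -7.91, none of them above background. Fam20a was at -4.45 on set 1 array 1 against -5.91 to -5.57 on the others. Etv4 was at 0.29 on set 1 array 2 against -1.02 to -0.55. Zmat3 was at 1.36 on set 1 array 1 against 0.88 to 1.01. In all 4 genes the 3 plasmid arrays lay above that siRNA array too.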

How the results depend on the processing

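The 75th percentile and every other scaling kept the direction of Dmrt3, which ran from 0.74 (normexp) to 0.84 over the alternatives that leave out no array. Without the replicate block the calls were 336 against both sets, 192 against set 1 and 375 against set 2, and Dmrt3 (0.84) was not called. With no filter on dim probes they were 349, 196 and 414, and with the 9 arrays alone the set 2 count was 416; both alternatives change how many genes or samples enter the fit. Leaving out 1 array gave 148 to 649 calls against both sets, 72 to 380 against set 1 and 139 to 763 against set 2, with Dmrt3 at 0.79 to 0.91 and Dmrta2 at -0.11 to 0.03. Under normexp the sign turned for Dmrta2 (0.035), Phyhipl (0.092), Isl1 (0.123), Dmrtc1a (0.120), Dlx1 (0.052), Fosl1 (0.112), Lyz2 (0.110), Klf1 (0.024), Epor (0.014) and Pecam1 (0.044). With 1 array left out it turned for Dmrta2 (0.030 without plasmid array 1, 0.028 without set 2 array 2), Epor (range -0.523 to 0.000) and Sox17 (-0.403 to 0.018), the last 2 without plasmid array 1. The cause was not tested. All but Phyhipl and Isl1 were uncalled. Of the 68 named called genes 34 kept their call in all 12 fits that leave out 1 array. Dmrt3 was among the other 34, and those besides Dmrt3 lost 181 calls in all in those fits. Under the remaining alternatives 48 calls of named genes besides Dmrt3 were lost. Genes near background and the lack of an empty plasmid limit these results.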

Other observations

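Outside the lists, further genes of receptors, channels and secreted proteins were called; those named here were chosen after their values were seen. Hrh3, the histamine H3 receptor gene, stood at -0.41, -0.37 and -0.32 on the plasmid arrays and at -2.96 to -2.22 (median -2.54) on the 6 siRNA arrays, a difference of 2.18 ± 0.18 (SE, limma adjusted p = 0.00102). Its level was 2.16 from control in the plasmid arrays and -0.03 in the siRNA arrays. Asic4, of the acid-sensing ion channel family, stood at -2.57, -2.60 and -2.64 against -5.47 to -4.63 (median -5.02), a difference of 2.42 ± 0.11 (adjusted p = 0.000107). In both genes the arms were far apart. Htr3a, a serotonin receptor subunit, differed by 1.94 ± 0.18 and Scn4b, a sodium channel subunit, by 1.94 ± 0.18. Bmp2, a BMP ligand, differed by 2.07 ± 0.18, with 1.02 from control in the plasmid arrays and -1.05 in the siRNA arrays. Spon1, a matrix protein of the floor plate, was above background on 1 of 6 siRNA arrays and differed by 2.73 ± 0.42; without plasmid arrays 1, 2 or 3 it was not called (adjusted p 0.0577 to 0.0832).

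Among the lower genes were 2 factors that pattern other parts of the nervous system. Pax3, a paired box factor, differed by -1.38 ± 0.19 and Foxn4, a forkhead factor, by -1.36 ± 0.20, with all 3 plasmid arrays below all 6 siRNA arrays. Against control Pax3 was 0.00 in the plasmid arrays and 1.38 in the siRNA arrays, and Foxn4 0.01 and 1.37. Pax3 was not called without plasmid array 1 or 2 (adjusted p 0.0513 and 0.0592), and Foxn4 not without plasmid array 2 or 3 (0.0844 and 0.0754). Pcdh10, a protocadherin of axon growth, stood at -0.98, -1.37 and -0.95 against 0.01 to 0.46 (median 0.08), a difference of -1.26 ± 0.13 (adjusted p = 0.00267). The adhesion protein gene Cadm2 differed by -1.39 ± 0.25, and lost its call without plasmid array 1, 2 or 3, set 1 array 2 or 3, or set 2 array 3 (adjusted p 0.0556 to 0.126).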
